A study of Mus musculus with 6 samples.

Results

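The 10 genes described here carry glycolysis from glucose to lactate in the mouse hippocampus: Hk1, Hk2, Pfkp, Pfkfb3, Aldoa, Gapdh, Pgk1, Pgam1, Pkm and Ldha. They were chosen by symbol, with a main enzyme or isoform for most steps and the inducible regulator Pfkfb3 added, and all 10 were found among the 52550 gene identifiers listed for each library. All 10 also passed the filter on low counts, which kept 18795 genes. Hippocampal total RNA was sequenced from male C57BL / 6 mice 24 h after surgery. The Sham group (Sham1 to Sham3, n = 3) had anaesthesia and craniotomy without impact, and the TBI group (TBI1 to TBI3, n = 3) had the same surgery followed by a controlled cortical impact of moderate severity over the right parietal cortex. Each library came from 1 mouse, the sources name no transgene and no drug besides the anaesthetics, and they describe the whole hippocampus without saying plainly whether tissue of both sides was pooled. The comparison asks how transcript levels in the hippocampus differed between injured and sham-operated mice 1 day after a cortical impact.

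Glycolysis turns glucose into pyruvate in the cytosol, and lactate dehydrogenase can reduce that pyruvate to lactate. In brain tissue the pathway is associated above all with astrocytes, which hold glycogen and release lactate, while neurons rely more on oxidative metabolism; several of its genes are targets of the hypoxia-inducible factor HIF1. Hk1 and Hk2 encode hexokinases, which trap glucose in the cell as glucose 6-phosphate. Pfkp encodes the platelet type of phosphofructokinase, which commits sugar to glycolysis, and Pfkfb3 makes fructose 2,6-bisphosphate, the strongest activator of that step. Aldoa (aldolase), Gapdh, Pgk1, Pgam1 and Pkm (pyruvate kinase) carry the later steps, and Ldha makes the subunit of lactate dehydrogenase that favours lactate formation.

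None of the 10 genes passed the test between TBI and Sham, and their levels overlapped between the groups in every case. The widest spread lay within the Sham group, where the library labelled Sham2 held 5.04 times the Hk2, 1.97 times the Ldha and 1.79 times the Pfkp level of the mean of Sham1 and Sham3. Without that library the difference between TBI and Sham in Hk2 changed sign. By contrast Gapdh, Pgk1, Pgam1 and Pkm stayed within a narrow band in all 6 libraries.

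Of the 6 libraries 3 stood apart in genes that mark cell types or regions, and the part of these differences in the results that follow was not tested. Whether these libraries match their labels, in group or in the tissue dissected, was not tested either, and each comparison of TBI with Sham takes the labels as given. Sham2 went against its label in reactive astrocyte genes: all 8 of 8 were highest in Sham2, with a summed level of 4951 CPM (counts scaled to the library's TMM-adjusted total) against 714 in Sham1, 717 in Sham3, and 636 to 1761 in TBI. Gfap, the intermediate filament of astrocytes, stood at 4055 CPM in Sham2 and at 541 to 1478 CPM in the other 5 libraries. Timp1, an inhibitor of matrix proteases, was picked after its values were seen and is the most extreme of the 8 genes. It had 3083 counts in Sham2 against 0 and 10 in the other sham libraries and 9 to 363 in TBI. Mbp, a myelin protein gene of oligodendrocytes, was lowest in Sham2, at 696 CPM against 1702 to 2518 CPM in the other 5 libraries. TBI1 held 8 striatal genes, the dopamine receptor genes Drd1 and Drd2 among them, at a summed 3808 CPM against 133 to 192 CPM elsewhere. Of 11 hippocampal neuron genes 8 were lowest in TBI1, with Prox1, a transcription factor of dentate granule cells, at 19.6 CPM against 56.0 to 96.0 CPM and Dsp at 1.1 CPM against 14.5 to 54.2 CPM. The other 3 went another way, as Wfs1 was highest in TBI1 (276 CPM against 64.4 to 175 CPM), Calb1 was exceeded there only by TBI3 and Pou3f1 only by Sham1. TBI3 held 6 cerebellar genes at a summed 1591 CPM against 42.2 to 193 CPM, and Gabra6, a receptor subunit of cerebellar granule cells, had 7110 counts there, 28 in Sham3, 16 in TBI2 and 0 in Sham1, Sham2 and TBI1. Choroid plexus genes, led by Ttr, summed to 2027, 54.4 and 2073 CPM in the sham libraries and to 242, 2354 and 259.9 CPM in the TBI libraries, in the order of their numbers. Summed levels of the other lists ran from 7848 to 10855 CPM for neurons (Rbfox3 and Snap25 at their head), 3446 to 5480 CPM for astrocytes (Aldh1l1, Slc1a3), 268 to 569.8 CPM for microglia and macrophages (Cx3cr1, P2ry12), 149.8 to 202 CPM for endothelial cells (Cldn5, Pecam1), 117 to 602 CPM for erythroid cells (Hba-a1, Hba-a2), 1.58 to 16.3 CPM for the 3 tested neutrophil genes (S100a8 and S100a9 in the list) and 61.8 to 314 CPM for thalamus (Tcf7l2, Prkcd). In bulk tissue, fewer cells of a type and less RNA per cell cannot be told apart.

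**Figure D1:**
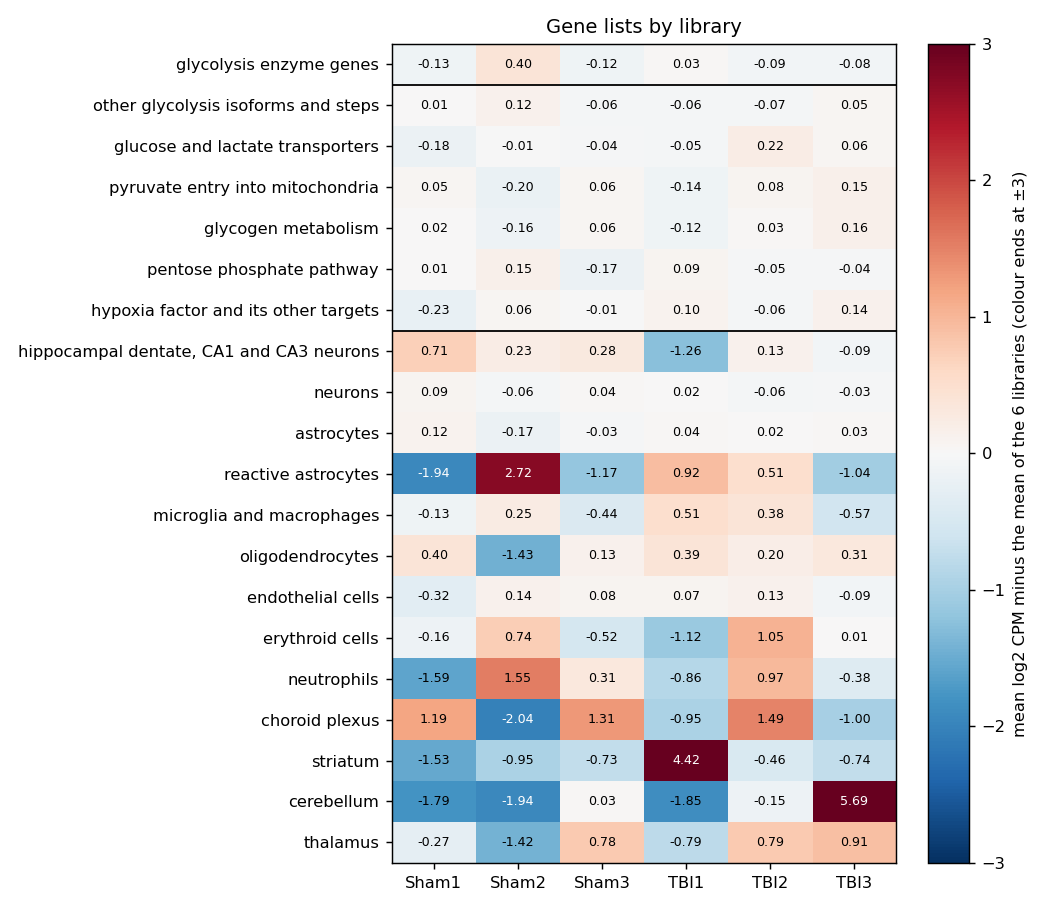
Each cell gives log2 CPM, centred on the 6 libraries and averaged over a list's tested genes, for the 10 glycolysis enzyme genes (top row), 6 further lists of glucose metabolism and 13 marker lists, with 1 column per library. The glycolysis enzyme genes averaged 0.40 in Sham2, from -0.33 for Pfkfb3 to 1.66 for Hk2, and between -0.13 and 0.026 elsewhere. Reactive astrocyte genes stood at 2.72 in Sham2, striatal genes at 4.42 in TBI1 and cerebellar genes at 5.69 in TBI3.

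The first enzyme of the pathway, hexokinase, was represented by a common and a rare transcript. Hk1 (ENSMUSG00000037012.18), on the minus strand of chromosome 10 of GRCm38 from 62268855 to 62379908, stood at 309, 388 and 263 CPM in Sham1 to Sham3 and at 260.1, 273 and 352 CPM in TBI1 to TBI3. Hk2 (ENSMUSG00000000628.10), the inducible hexokinase, lies on the minus strand of chromosome 6 from 82725025 to 82774454 and had 7.14, 37.9 and 7.89 CPM in the sham libraries and 14.4, 8.98 and 10.8 CPM in the TBI libraries. Sham2 thus held the highest level of both genes, and for Hk2 it stood far above the other 5 libraries, which lay between 7.14 and 14.4 CPM. Hk2 averaged 17.6 ± 17.6 CPM over the sham libraries and 11.4 ± 2.73 CPM over the TBI libraries (SD, n = 3 each), so the sham SD was as large as the mean. In edgeR's quasi-likelihood test the log2 fold change of Hk2 was -0.63 (standard error 0.66, 95% interval -2.22 to 0.96, adjusted p = 0.982), and without Sham2 it was 0.60 (95% interval -0.041 to 1.24, adjusted p = 0.997). All 3 TBI libraries were above Sham1 and Sham3 in Hk2, and all 3 were below Sham2. For Hk1 the log2 fold change was -0.12 (standard error 0.19, 95% interval -0.57 to 0.34, edgeR adjusted p = 0.983) and 0.046 without Sham2.

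Pfkp (ENSMUSG00000021196.14; chromosome 13, minus strand, 6579768 to 6648777) had the same order of libraries as Hk2, at the step that commits sugar to the pathway. Its level was 178, 341 and 202 CPM in Sham1 to Sham3 and 269, 204 and 217 CPM in TBI1 to TBI3, which made Sham2 the highest and TBI1 the next. The log2 fold change was -0.061 (standard error 0.26, 95% interval -0.69 to 0.57, edgeR adjusted p = 0.992) with all libraries and 0.28 (95% interval -0.12 to 0.68, adjusted p = 0.997) without Sham2. Pfkfb3 (ENSMUSG00000026773.19; chromosome 2, minus strand, 11471433 to 11554077), the regulator, did not share this order. It stood at 38.2, 30.5 and 40.6 CPM in Sham and at 35.1, 44.0 and 43.7 CPM in TBI, and Sham2 was its lowest library rather than its highest. Its log2 fold change was 0.17 (standard error 0.16, 95% interval -0.23 to 0.56, edgeR adjusted p = 0.982), and 0.053 without Sham2. The ratio of Pfkfb3 to Pfkp within a library was therefore lowest in Sham2, at 0.0897, followed by TBI1 at 0.130 and by 0.201 to 0.216 in the other 4.

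Aldoa, Pgk1, Pgam1 and Pkm carry later steps of the pathway. Aldoa (ENSMUSG00000030695.15; chromosome 7, minus strand, 126795234 to 126800751), which splits fructose 1,6-bisphosphate, stood at 1207, 1477 and 1108 CPM in Sham and 1196, 1116 and 1001 CPM in TBI. Pgk1 (ENSMUSG00000062070.12; chromosome X, plus strand, 106187100 to 106203699), which makes the first ATP of the pathway, had 542, 614 and 552 CPM against 498, 568 and 511 CPM. Pgam1 (ENSMUSG00000011752.6; chromosome 19, plus strand, 41911923 to 41918660), a mutase, had 416, 468 and 407 CPM against 379, 391 and 409.8 CPM. In each of these genes Sham2 was highest, and the TBI values lay close to those of Sham1 and Sham3. Pkm (ENSMUSG00000032294.17; chromosome 9, plus strand, 59656368 to 59679375), which makes pyruvate, had 1519, 1641 and 1467 CPM in Sham and 1716, 1516 and 1576 CPM in TBI, so that TBI1 rather than Sham2 was its highest library. Log2 fold changes were -0.19 for Aldoa (95% interval -0.54 to 0.15), -0.12 for Pgk1 (-0.38 to 0.15), -0.13 for Pgam1 (-0.38 to 0.12) and 0.055 for Pkm (-0.20 to 0.31), with edgeR adjusted p from 0.982 to 0.984. These intervals left room for changes of at most 1.24-fold up, for Pkm, and to 0.688 of the sham level, for Aldoa. Without Sham2 the 4 values were -0.068, -0.058, -0.065 and 0.10.

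Ldha (ENSMUSG00000063229.15; chromosome 7, plus strand, 46841475 to 46855627), at the end of the pathway, again set Sham2 apart. The level was 276, 569.7 and 302 CPM in Sham1 to Sham3 and 363, 281 and 216 CPM in TBI1 to TBI3, averaging 383 ± 162 CPM over the former and 287 ± 73.9 CPM over the latter (SD, n = 3 each). Sham2 was highest, TBI1 next and TBI3 lowest. The log2 fold change was -0.42 (standard error 0.32, 95% interval -1.19 to 0.36, edgeR adjusted p = 0.982). Without Sham2 it was -0.013 (95% interval -0.58 to 0.55), so the mean difference between the groups in Ldha came with the inclusion of that library.

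**Figure D2:**
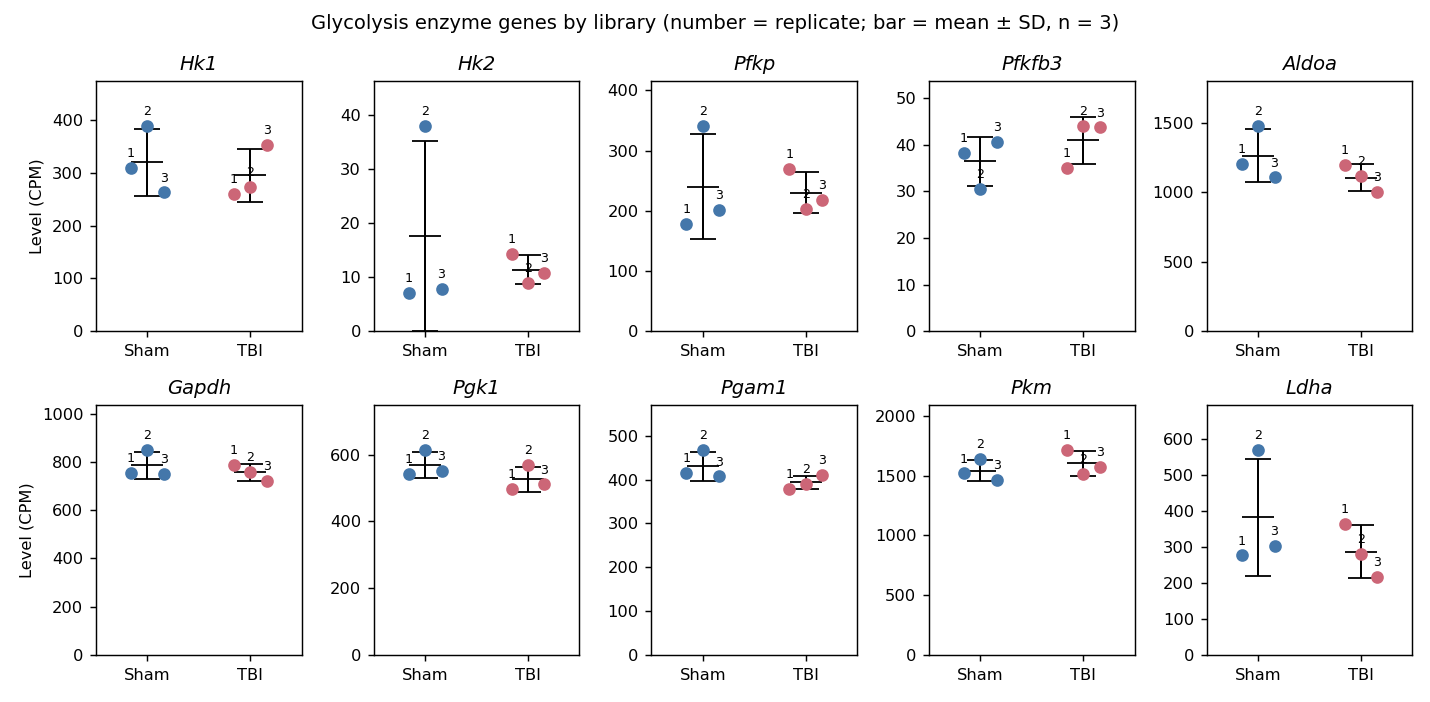
Level in CPM (vertical axes, from 0) of each of the 10 genes in the Sham (blue) and TBI (red) libraries, with the replicate number beside each point and bars for the mean ± SD of 3 libraries. Sham2 is the highest point in 8 of the 10 panels, far from the rest in Hk2 (37.9 CPM), Ldha (569.7 CPM) and Pfkp (341 CPM), and the lowest in Pfkfb3.

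Taken over the list, 0 of 10 genes were called in either direction (a fold change above 1.5 with p under 0.05 and adjusted p under 0.1), and the share called over all 18795 tested genes was 0.0%. At an unadjusted p under 0.05 there were also 0 of 10, against 4.29% of all tested genes. With DESeq2's defaults 0 of 10 were called (adjusted p 0.9997 for each), where 46 genes or 0.219% of those with an adjusted p were called in all. Without Sham2, edgeR called 0 of 10 against 0.0% of all genes, 0 of 10 were at an unadjusted p under 0.05 against 3.39%, and DESeq2 called 0 of 10 against 0.317%. TBI and Sham did not overlap in 0 of 10 genes, against 10.2% of all tested genes. The estimates of 8 of the 10 genes lay below 0, against 48.6% of all tested genes, and without Sham2 there were 4 of 10, against 46.0%. The median log2 fold change of the list was -0.12, beside 0.0091 over all tested genes, and without Sham2 the 2 medians were 0.026 and 0.025. Leaving out TBI1 gave -0.83 for Hk2, -0.62 for Ldha and -0.19 for Pfkp, and leaving out TBI3 gave -0.59, -0.25 and -0.024. Sham2 was the highest of the 6 libraries in 8 of 10 genes, where it was highest in 23.7% of all tested genes. It was lowest in 1 of 10, Pfkfb3, against 23.0%, and TBI1 was highest in 1 of 10, Pkm, against 19.7%. A level over 1.5 times the mean of the other sham libraries was seen in Sham2 for 3 of the 10 genes (Hk2, Ldha and Pfkp) and for 14.4% of all tested genes.

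**Figure D3:**
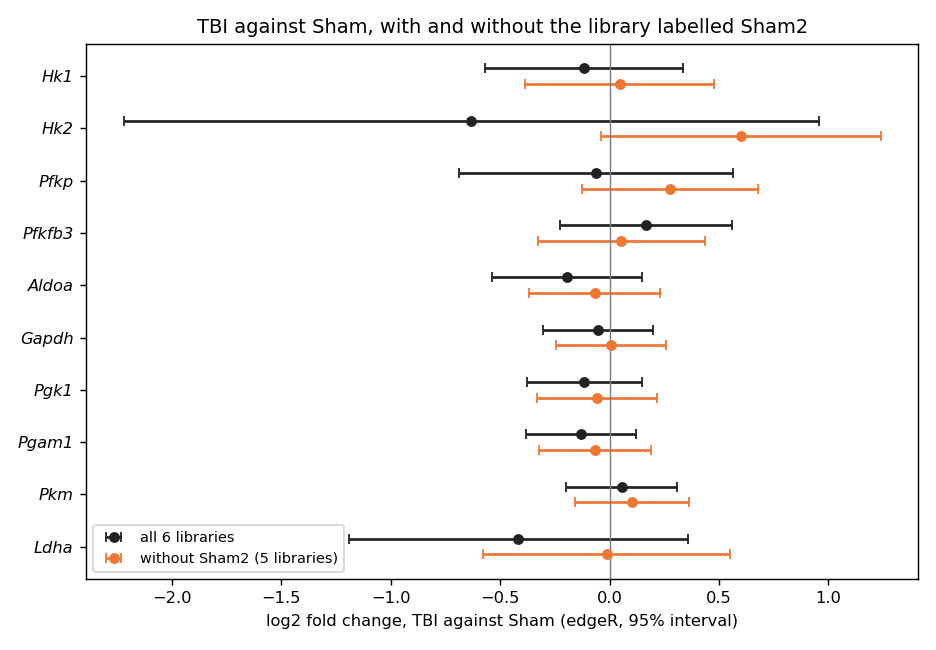
Log2 fold change of TBI against Sham from edgeR (horizontal axis) for each of the 10 genes, with its 95% interval, from all 6 libraries (black) and from the 5 libraries without Sham2 (orange). Every interval includes 0, and the point for Hk2 moves from -0.63 to 0.60 when Sham2 is left out.

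Scaled by gene length, the 10 genes covered a wide range of abundance. The per-length level is the CPM per kilobase of annotated exon, rescaled to the same sum over all genes in every library. The mean ± SD over the 6 libraries was 1296 ± 201 for Aldoa, 1001 ± 69.4 for Pkm, 777 ± 73.8 for Pgk1, 662 ± 65.1 for Pgam1 and 594 ± 45.3 for Gapdh. It was 323 ± 129 for Ldha, 115 ± 22.5 for Hk1, 56.1 ± 15.6 for Pfkp, 16.3 ± 2.10 for Pfkfb3 and 7.85 ± 6.62 for Hk2. Aldoa, Pkm, Pgk1, Pgam1 and Gapdh thus stood above Hk1, Hk2 and Pfkp, the members at the entry points of the pathway. Pfkp was not the main phosphofructokinase transcript by this measure, since Pfkm stood at 391 in Sham and 424 in TBI and Pfkl at 152 and 97.9. This scaling divides Pfkp by 13401 exonic bases, while its longest transcript has 8681. In CPM, without it, Pfkp stood at 240 in Sham and 230 in TBI, Pfkm at 407 and 448 and Pfkl at 315 and 207. Among neighbours in this order, Pgk1 and Pgam1 overlapped in their ranges over libraries, as did Pgam1 and Gapdh. Gapdh and Ldha overlapped, as did Pfkfb3 and Hk2, through Sham2. The remaining neighbours did not overlap. Compared within each library, Pgk1 stood above Pgam1, Pgam1 above Gapdh and Gapdh above Ldha in every library. Only Hk2 changed places within a library, standing above Pfkfb3 in Sham2. Per length of the longest annotated transcript, Aldoa (1660 to 2508) and Pkm (1537 to 1775) overlapped, and Pgam1 (588) and Gapdh (594) changed places. The level of Gapdh leaves out its pseudogene copies, described next to its values, which were given about as many counts, so its place in the order is uncertain. Summed over the 10 genes, the per-length level was 4603, 5990 and 4659 for the sham libraries and 4775, 4551 and 4514 for the TBI libraries. All 10 genes together took 0.657% of the counts in Sham2 and 0.509% to 0.542% in the other libraries.

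Variation within the groups differed among the members. The coefficient of variation in Sham was 99.5% for Hk2, 42.5% for Ldha and 36.6% for Pfkp, against 7.14% for Gapdh and 5.81% for Pkm. In TBI it was 24.0% for Hk2, 25.8% for Ldha, 16.9% for Hk1, 15% for Pfkp, 4.44% for Gapdh and 6.42% for Pkm. The median over the 10 genes of the within-group coefficient was 13.1%, beside 22.2% over all tested genes. The widest spread among the sham libraries was thus that of the inducible hexokinase, the lactate-forming subunit and the platelet phosphofructokinase, with Sham2 included, whereas in TBI Hk1 spread more than Pfkp. In both groups Pkm and Gapdh, a common reference gene, spread little.

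Gapdh (ENSMUSG00000057666.18; chromosome 6, minus strand, 125161715 to 125166467), the dehydrogenase of glyceraldehyde 3-phosphate, had 755, 850 and 751 CPM in Sham and 788, 759 and 721 CPM in TBI. Its log2 fold change was -0.054 (standard error 0.11, 95% interval -0.31 to 0.20, edgeR adjusted p = 0.984) and 0.0060 without Sham2. This value rests on counts that were divided among near-identical copies. In GENCODE vM21, 168 pseudogenes match the Gapdh transcripts at 90% identity or more over at least 200 bases, and together they were given 34608, 34346 and 30747 counts for the sham mice and 34610, 25899 and 27503 counts for the TBI mice, in the order of their numbers. That was 50.2% to 53.1% of the sum of Gapdh and its copies, so the copies were given more counts than Gapdh itself in every library. The copy with the most counts, Gm7336, has a stretch identical to all 1002 bases of the Gapdh coding sequence, and the next copies, Gm5559 and Gm12070, differ from it at 1 base each. The stretch that holds both differences is printed from the GENCODE transcripts (coding bases 326 to 385, counted from the first coding base of Gapdh), since it shows how alike these genes are; capitals mark the 2 positions, T385A in Gm5559 and G361A in Gm12070.
Gapdh: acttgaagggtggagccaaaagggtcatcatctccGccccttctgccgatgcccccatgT
Gm7336: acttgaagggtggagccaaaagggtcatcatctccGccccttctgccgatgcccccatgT
Gm5559: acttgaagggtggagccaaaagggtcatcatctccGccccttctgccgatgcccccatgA
Gm12070: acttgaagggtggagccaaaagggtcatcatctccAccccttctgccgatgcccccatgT
Counts of Gm7336 were 5358, 5230 and 4845 for the sham mice and 5417, 4170 and 4235 for the TBI mice. Those of Gapdh were 30580, 34099 and 28812 for the sham mice and 32181, 24018 and 25674 for the TBI mice. Gapdh and all its copies averaged 1622 ± 78.0 CPM over the sham libraries and 1569 ± 71.4 CPM over the TBI libraries (SD, n = 3 each), a difference of -0.048 in log2 (p = 0.5 in an exact permutation test, two-sided, whose smallest p is 0.1). Levels of Gapdh itself are uncertain for this reason. The share of the sum was 2.98% to 3.44% for the copies of Pgam1 and at most 0.708% for those of Pgk1, Pkm and Ldha, the copies of Aldoa had 0 counts, and no such copy was found for Hk1, Hk2, Pfkp and Pfkfb3. Shared exons with genes on the opposite strand covered 5.58% of Pfkp (Pitrm1), 1.84% of Hk1 (Hk1os), 1.65% of Gapdh (Iffo1) and 0.859% of Aldoa (Fam57b), and Gm49759 on the same strand shared 15.3% of the exonic bases of Pkm. Strandedness is not given in the sources used here, so reads from stretches shared with the opposite strand cannot be told apart, and for Gm49759 strand would not separate them.

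**Figure D4:**
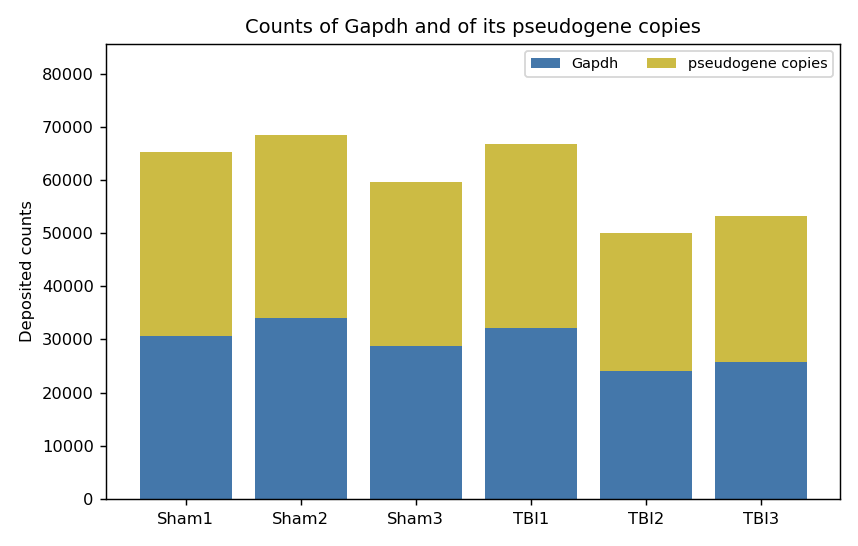
Deposited counts (vertical axis, from 0) given to Gapdh (blue) and to its 168 pseudogene copies together (yellow) in each library. The yellow part is larger than the blue one in all 6 libraries, at 50.2% to 53.1% of the sum.

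Ratios of related enzymes within a library do not depend on library scaling, and 6 were compared by two-sided exact permutation tests over 3 against 3 libraries, in which p cannot go below 0.1. Ldhb encodes the lactate dehydrogenase subunit that favours pyruvate, Aldoc is the aldolase of astrocytes, Pfkm is the muscle type of phosphofructokinase, and Eno1 and Eno2 encode the general and the neuronal enolase. The ratio of Ldha to Ldhb was 0.748, 2.45 and 0.709 among the sham libraries and 0.824, 0.681 and 0.423 among the TBI libraries. Ldha thus exceeded Ldhb in CPM in Sham2 and in no other library, and Ldhb itself was lowest there, with 232 CPM against 369 to 511 CPM. The ratio of Aldoa to Aldoc was 1.16, 2.62 and 1.07 in Sham and 1.36, 1.02 and 0.689 in TBI, and Aldoc was likewise lowest in Sham2, with 563 CPM against 878 to 1454 CPM. The ratio of Hk2 to Hk1 was 0.0233, 0.0978 and 0.0302 in Sham and 0.0554, 0.0331 and 0.0308 in TBI. Pfkp to Pfkm and Eno1 to Eno2 were also highest in Sham2, at 0.820 and 1.80, and lay at 0.419 to 0.639 and 0.932 to 1.53 elsewhere. Sham2 was the highest library in 5 of the 6 ratios, the exception being Pfkfb3 to Pfkp. TBI minus Sham in log2 was -0.82 for Ldha/Ldhb, -0.59 for Aldoa/Aldoc, -0.33 for Eno1/Eno2, -0.14 for Pfkp/Pfkm, -0.095 for Hk2/Hk1 and 0.18 for Pfkfb3/Pfkp. The exact p ran from 0.3 to 1.0 (0.8 to 1.0 after Benjamini-Hochberg adjustment over the 6 ratios). Without Sham2 the differences were -0.23, -0.18, -0.20, 0.13, 0.53 and -0.22 in the same order.

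**Figure D5:**
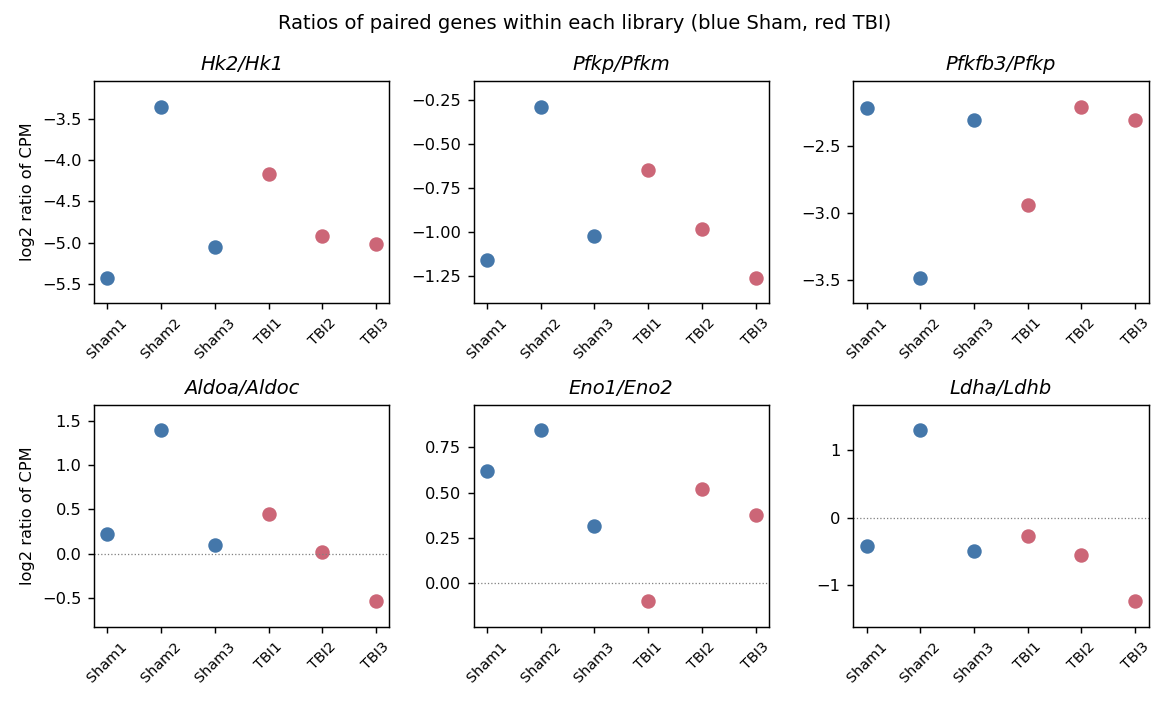
Log2 ratio of CPM (vertical axes, not starting at 0) of 6 pairs of related enzymes in each library, blue for Sham and red for TBI. Sham2 is the highest point in 5 panels, and in the panel of Pfkfb3/Pfkp it is the lowest.

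Further genes of glucose metabolism were described by lists. Of 24 other isoforms and steps of glycolysis 19 were tested, with 10 higher and 9 lower in TBI and 0 called. Pgk2, Eno1b and Ldhc were listed at 0 counts in every library, and Pfkfb1 and Pklr fell below the filter. The median log2 fold change was 0.039, and 0.11 without Sham2. Pfkl, the liver type of phosphofructokinase, was the only member of that list with an unadjusted p under 0.05 in edgeR's test, beside 4.29% of all tested genes. It had 312, 402 and 231 CPM in Sham against 213, 229 and 180 CPM in TBI. All 3 TBI values of Pfkl lay below all sham values, and the log2 fold change was -0.60 (standard error 0.22, edgeR adjusted p = 0.982), or -0.39 without Sham2. DESeq2's defaults did not call Pfkl with all libraries (adjusted p = 0.687). With Sham3 left out they did (log2 fold change -0.80, adjusted p = 0.0957), where 0.588% of all genes were called. Fits of DESeq2 with a library left out were added after the data were seen. Aldoc had a log2 fold change of 0.38 (edgeR adjusted p = 0.982).

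Glucose and lactate carriers numbered 10, with 6 higher, 4 lower and 0 called (median 0.021, and 0.12 without Sham2). Slc16a7, a high-affinity carrier of lactate and pyruvate on neurons, stood at 12.5, 8.08 and 10.4 CPM in Sham and 11.9, 27.6 and 26.7 CPM in TBI. TBI2 and TBI3 lay above all sham libraries and TBI1 among them, with a log2 fold change of 1.09 (standard error 0.35, edgeR unadjusted p = 0.0187, adjusted p = 0.982) that was 0.94 without Sham2. DESeq2's defaults did not call Slc16a7 with all libraries (adjusted p = 0.389). With TBI1, the TBI library among the sham values, left out, they did (log2 fold change 1.38, adjusted p = 0.000630). In that fit 0.219% of all genes were called. Bsg, a chaperone of such carriers, had a log2 fold change of -0.080. Slc16a3, a lactate exporter of glycolytic cells that was picked after its values were seen, was also highest in Sham2, with 4.37, 16.3 and 4.58 CPM in Sham and 6.47, 6.04 and 3.01 CPM in TBI. Over the 10 carriers Sham2 was highest in 3 and lowest in 3.

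None of the 3 branch pathways held a gene at an unadjusted p under 0.05 in edgeR's test, beside 4.29% of all tested genes. With DESeq2's defaults 1 gene was at such a p, the muscle glycogen phosphorylase Pygm (unadjusted p = 0.0273, adjusted p = 0.816). Among 13 genes of pyruvate entry into mitochondria 6 were higher and 7 lower (median -0.032, and -0.047 without Sham2), with log2 fold changes of -0.072 for Pdha1, a subunit of pyruvate dehydrogenase, and -0.040 for Dld. Pdp1, the phosphatase that activates pyruvate dehydrogenase, was not called by DESeq2's defaults with all libraries (adjusted p = 0.948). It was called with Sham3 left out (log2 fold change 0.91, adjusted p = 0.0168), where 0.588% of all genes were called. With all libraries edgeR gave it 0.57 (adjusted p = 0.982). Of 12 genes of glycogen metabolism 5 were higher and 7 lower (median -0.0068, and -0.11 without Sham2), with -0.053 for Pygb, the brain glycogen phosphorylase, and 0.22 for Pgm1. Of 8 genes of the pentose phosphate pathway 3 were higher and 5 lower (median -0.026, and 0.083 without Sham2), with 0.034 for Taldo1 and -0.014 for Tkt.

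The hypoxia factor Hif1a and 17 other genes of its pathway were listed because several glycolytic genes share this regulator. Of the 18 genes 12 were higher and 6 lower in TBI, 0 were called and the median log2 fold change was 0.089, and 0.056 without Sham2. Hif1a itself varied little, from 78.5 to 92.0 CPM over the 6 libraries. Car9, a carbonic anhydrase, had 13, 32 and 18 counts in Sham against 47, 36 and 58 counts in TBI, with no overlap between the groups and a log2 fold change of 1.30 (standard error 0.48, edgeR unadjusted p = 0.0312, adjusted p = 0.982) that was 1.72 without Sham2. Ddit4, a stress-induced inhibitor of mTOR, had a log2 fold change of 0.24. Adm, which encodes the vessel-dilating peptide adrenomedullin and was picked after its values were seen, was highest in Sham2, at 8.37 CPM against 0.716 to 2.78 CPM. Over the list, Sham2 was the highest library in 3 of 18 genes, beside 23.7% of all tested genes, and the lowest in 5 of 18, beside 23.0%.

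Sequence before the annotated starts of the members was searched for ACGTG on both strands, the core of the sites that HIF1 binds. In the RefSeq windows of GRCm38.p6, cut to the 250 bases before each start, 9 of the 16 windows of the members held it, in 7 of 10 genes; over all 32851 windows the share was 16.57%. The members without it were Hk1, Pfkp and Gapdh, and of the members that held it, Aldoa had it in 2 of 3 windows and Ldha and Pkm in 1 of 2. The windows of Aldoa with the motif overlap and share a single site, so the 9 windows are not independent. Windows of 3 members are shown, with the motif in capitals: Hk2 and Ldha, which were highest in Sham2 by the widest margin, and Pgk1, which varied little. CACGTG holds the motif on both strands. A stretch just after the Ldha window shown was not found in the GENCODE transcripts of Ldha. The other Ldha window passed that check and lacks the motif. Among the remaining members only the window of Pgam1, which holds the motif, failed it. Hk2 is chr6:82774455-82774704 on the minus strand, Ldha chr7:46845554-46845803 on the plus strand and Pgk1 chrX:106186850-106187099 on the plus strand.
Hk2: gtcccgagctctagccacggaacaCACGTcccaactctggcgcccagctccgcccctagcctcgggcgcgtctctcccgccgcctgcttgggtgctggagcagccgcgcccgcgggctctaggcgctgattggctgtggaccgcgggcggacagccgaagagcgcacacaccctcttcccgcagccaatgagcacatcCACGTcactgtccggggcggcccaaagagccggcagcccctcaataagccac
Ldha: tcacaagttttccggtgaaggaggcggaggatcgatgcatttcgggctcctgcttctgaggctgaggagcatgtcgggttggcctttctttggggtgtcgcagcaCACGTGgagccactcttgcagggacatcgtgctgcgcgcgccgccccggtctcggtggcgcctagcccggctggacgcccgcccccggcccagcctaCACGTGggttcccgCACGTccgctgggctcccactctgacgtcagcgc
Pgk1: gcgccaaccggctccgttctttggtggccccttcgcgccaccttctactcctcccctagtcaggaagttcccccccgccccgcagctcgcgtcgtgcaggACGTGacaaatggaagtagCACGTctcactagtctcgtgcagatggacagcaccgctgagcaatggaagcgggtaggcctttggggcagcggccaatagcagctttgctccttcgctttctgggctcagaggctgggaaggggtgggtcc
The motif stands in the windows of genes that were high in Sham2 and of genes that varied little, and not in the window of Pfkp. A part of the factor in these levels was not tested. A match of letters is a description and not evidence of binding.

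The mean profile of the 10 genes over the libraries (log2 CPM centred on the mean of the 6 libraries) was -0.13, 0.40 and -0.12 for the sham libraries and 0.026, -0.089 and -0.081 for the TBI libraries. The 5 other tested genes nearest to it, by the root mean square difference over the 6 libraries, were Ythdf2 (0.0376), Fam78b (0.0378), Eif3d (0.0392), Tars (0.0442) and Pomt2 (0.0450), where the median difference over all other tested genes was 0.355. Ythdf2, for example, stood at 29.5, 43.2 and 31.6 CPM in Sham and 33.8, 29.8 and 31.7 CPM in TBI. The likeness is over 6 libraries and rests mainly on Sham2. The members were uneven there, with Hk2 at 1.66, Ldha at 0.84, Pfkp at 0.57 and the rest from -0.33 to 0.35.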

How the data were processed

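Hippocampal RNA of 3 Sham and 3 TBI mice was measured by RNA-seq, with groups taken from the sample labels. For quality control the authors used FastQC, and for alignment to GRCm38 and quantification HISAT2 and StringTie. Each deposited value is an estimated count, a whole number without normalization. Low values pile up at multiples of 4, and versions, strandedness and the step to counts are not given in the sources used here, so counts are not reads and no counting interval was taken. Totals ran from 31630936 to 41771872 per library. Of 52550 identifiers 52403 matched GENCODE vM21. The symbol Aldoa has a second identifier with 0 to 19 counts, which was left out.

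The filter on low counts was filterByExpr with the 2 groups, and TMM factors were used for scaling. edgeR 4.0.16 in R 4.3.3 gave the quasi-likelihood test over 18795 genes, with Benjamini-Hochberg adjustment. A call needed a fold change above 1.5 or under its inverse with p under 0.05 and adjusted p under 0.1, the thresholds of the study. Fold changes are log2, and ratios used CPM with a prior count of 2. DESeq2 1.42.0 was an alternative, as were other scalings, filters, dispersions, thresholds, lengths and prior counts, counts divided by 4, the replicate number as a block and each library left out. After the data were seen, DESeq2 with each library left out and 2 fits without Sham2 and TBI1 or TBI3 were added. Copies were searched with blastn 2.17.0 and kept where annotated as pseudogenes. Statistics were tested on simulated data.

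The members, the 6 other lists and the 13 marker lists were chosen with earlier results of these data known. By rule, named genes were the members, in each list up to 3 genes with the smallest unadjusted p under 0.05 or else the most abundant up to 2, markers from the first 2 of each marker list, the genes of each ratio and the 5 nearest profiles. Others were named outside the rule with their values known, among them Timp1, Wfs1, Calb1, Pou3f1, Slc16a3, Adm, Pygm and Pdp1. The values of 1 marker are not reported here. No set test was run.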

Additional observations from a re-analysis of the deposited data

How the results depend on the processing

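The count of called glycolysis enzyme genes was 0 under all 26 alternatives. Their median log2 fold change ran from -0.17 to 0.026 as each library was left out, the latter without Sham2, and was 0.024 without Sham2 and TBI3. With 3 libraries a group, and 1 mouse setting most of the spread in Hk2, Ldha and Pfkp, the data left room for changes within the intervals given. A change beyond an interval could still go uncalled, since a call also needed the fold change and adjusted p thresholds.

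Without Sham2 the sign turned for Hk1 (0.046 with edgeR, 0.036 with DESeq2), Hk2 (0.60 and 0.59), Pfkp (0.28 and 0.27), Gapdh (0.0060 with edgeR) and Tkt (0.043 and 0.033). Without Sham2 and TBI1 it turned for Hk1 (0.13), Hk2 (0.40), Pfkp (0.15) and Dld (0.035), and without Sham2 and TBI3 for Hk2 (0.64), Pfkp (0.32), Aldoa (0.0016), Gapdh (0.043), Ldha (0.16), Aldoc (-0.065) and Tkt (0.068). Without TBI2 it turned for Pfkp (0.017 with edgeR, 0.018 with DESeq2) and Tkt (0.0052 and 0.0081). Without TBI1 it turned for Pkm (-0.0097 with DESeq2), Dld (0.059 and 0.047), Pygb (0.15 and 0.14) and Taldo1 (-0.038 and -0.051). Without Sham1 it turned for Pygb (0.12 and 0.11), without Sham3 for Pygb (0.051 and 0.049) and Taldo1 (-0.099 and -0.10), and without TBI3 for Taldo1 (-0.019 and -0.024) and Tkt (0.0032). The cause was not tested. The lowest edgeR values with a library left out were -0.27 for Hk1, -0.997 for Hk2, -0.23 for Pfkp, -0.091 for Gapdh, -0.13 for Dld, -0.30 for Pygb and -0.063 for Tkt.

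As each library was left out, TBI minus Sham in the log2 ratio ran from -0.50 to 0.53 for Hk2/Hk1 (above 0 without Sham2, TBI2 or TBI3), from -0.31 to 0.13 for Pfkp/Pfkm (above 0 without Sham2 or TBI3) and from -0.22 to 0.41 for Pfkfb3/Pfkp (below 0 without Sham2). The median of other glycolysis isoforms ran from -0.041 without Sham3 to 0.15 without TBI2, and was -0.055 with DESeq2 without TBI2. That of carriers ran from -0.039 to 0.12, with 0.11 from DESeq2 without Sham2 and 0.24 without Sham2 and TBI3. That of pyruvate entry ran from -0.094 to 0.11, that of glycogen metabolism from -0.11 to 0.095, that of the pentose phosphate pathway from -0.081 to 0.083 and that of the hypoxia list from 0.043 to 0.10. With DESeq2's defaults, 1 isoform (Pfkl) and 1 gene of pyruvate entry (Pdp1) were called without Sham3, where 0.588% of all genes were called, and 1 carrier (Slc16a7) without TBI1, where 0.219% were. Per length of the longest transcript, the members summed to 6562 ± 1023 in Sham and 5976 ± 244 in TBI. The single genes followed under every alternative were the members and those named by rule in the 6 other lists, so Pdp1 is not among them. Of their values, 486 kept their direction and side of the thresholds, 40 turned and 2 passed the thresholds.

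Deviations from the group means correlated at -0.0996, -0.065 and 0.1528 between same-numbered sham and TBI libraries, and at -0.1822 to 0.2104 between the others. The labels do not say whether the numbers pair mice, and deviations from means of 3 libraries cannot decide it. With the replicate block the counts of calls stayed at 0 and the median of carriers was -0.058.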
